A study of Mus musculus with 16 samples.

Results

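Parp9 and Dtx3l are neighboring mouse genes on opposite strands of chromosome 16, whose protein products bind each other. They were taken by name as 2 of the 48440 rows of a gene count table from bone marrow–derived macrophages (BMDMs), the macrophages that grow out of marrow cells kept in M-CSF. The cells came from 8-week-old female NOD.hALOX12 mice, a non-obese diabetic strain in which human ALOX12 stands in for mouse Alox15 in every cell, and all groups shared this background and 7 days in 10 ng/mL M-CSF. There were 4 groups of 4 libraries each. M1 VLX-1005 cells received 10 µM VLX-1005, an inhibitor of human 12-lipoxygenase, for 1 hour, and polarization then lasted 18 hours with IFN-γ at 25 ng/mL and LPS at 10 ng/mL. M1 vehicle cells received 0.1% DMSO in place of the inhibitor before the same stimulus. M0 VLX-1005 and M0 vehicle cells were not polarized and received the inhibitor or DMSO alone. No source used here says that the 4 libraries of a group came from separate mice, so the p-values measure the spread between libraries, which may be technical.

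PARP9 is a macrodomain protein of the ADP-ribosyltransferase family. DTX3L is a ubiquitin ligase of the deltex family that works as a dimer with PARP9, and in human cells the complex is induced by interferon, acts in antiviral responses and is recruited to damaged DNA. In human cells the genes are driven from a shared, divergent promoter.

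In the GENCODE M21 annotation of mm10, Parp9 (ENSMUSG00000022906.15) lay on the plus strand at chr16:35938470-35972605 and had 4872 exon bases. Dtx3l (ENSMUSG00000049502.16) lay on the minus strand at chr16:35926511-35939151 and had 5725 exon bases. The genes ran away from each other but overlapped head to head over 682 bases. The first exon of Dtx3l, 458 bases at chr16:35938694-35939151, lay entirely within the first exon of Parp9, taken as the union of its transcripts. These bases made up 9.40% of the exon bases of Parp9 and 8.0% of those of Dtx3l. Both Dtx3l transcripts began at the same base. Of the 7 Parp9 transcripts, 4 began inside that first Dtx3l exon, 90 to 140 bases from the Dtx3l start. Parp9-203 alone began before that exon along the plus strand, at base 35938470, so the full overlap depends on this transcript.

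The RefSeq promoter table (GRCm38.p6) matched 1 of the 2 genes, Dtx3l, with a 300-base window at chr16:35938978-35939277. Such windows run from 250 bases before a RefSeq start to 50 bases after it. Of the 300 bases, 174 were exonic in both genes, 55 were exonic in Parp9 alone and 71 were outside the exons of both. Only the 55 and the 71 lie upstream of the GENCODE start of Dtx3l. The stretch outside the exons is shown because it is the only part of the window that neither row can count. It lies at chr16:35939207-35939277 and is written on the minus strand, 5′ to 3′, with its 1 CpG in capitals.
Dtx3l, upstream stretch: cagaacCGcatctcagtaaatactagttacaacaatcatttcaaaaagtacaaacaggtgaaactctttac
The whole 300-base window held 17 CpG, against a median of 7 over 32851 promoter windows, and 31.4% of windows held at least as many. On both strands it held no GAAANNGAA, the core of the interferon-stimulated response element, which 8.56% of all windows held. It also held no TTCNNNGAA, the gamma-activated site (8.3% of windows), no GGGNNTTCC, an NF-kappaB core (5.82%), and no TATAAA motif (13.6%). TTCNNNGAA reads the same on both strands. With no match to any motif, no matches overlapped. These searches describe the letters in this window only.

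The way the table was counted bears on every value of both rows. The libraries were strand-specific, but which strand HTSeq was told to count could not be learned from the sources used here. Library totals ran from 939584 to 1158095 counts, and 96.3% to 97.2% of them lay in the 17.5% of rows whose exons overlap those of a gene on the other strand. The rows of 15 transcripts that are abundant in most macrophages, such as Actb and Lyz2, held only 0.0389% to 0.0765% of a library, and 89.2% to 95.8% of mitochondrial counts lay on minus-strand rows. Counts in the Parp9 row may therefore be partly or wholly reads of Dtx3l transcripts, and those in the Dtx3l row reads of Parp9 transcripts, in which case the names of the rows are exchanged. Which of these cases holds was not tested, so each value below is that of a row and not of a transcript. On the second principal component, which held 0.93% of the variance, M0 VLX-1005 3, M0 vehicle 2 and M0 vehicle 3 lay apart from the other M0 libraries, and results without them are given beside the comparisons. The 9 macrophage markers summed to 238 to 336 counts per M1 library and 961 to 1260 per M0 library, but they did not move as a group. Of the 7 tested, Adgre1, Cd14 and Itgam rose with vehicle, Cd163 and Lyz2 fell, and Cd68 and Csf1r did not pass. With VLX-1005, Adgre1 and Cd14 rose, Cd163, Lyz2 and Cd68 fell, and Itgam and Csf1r did not pass. Over all rows tested, 31.7% were called higher and 34.8% lower with vehicle, and 31.5% and 33.8% with VLX-1005. Cd14 passed the low-count filter through its M1 libraries and Cd163 through its M0 libraries. Cd163 alone had 13 counts in all M1 vehicle libraries together and 2958 in all M0 vehicle libraries. T cell markers summed to 0 to 2, B cell markers to 0 to 4, and all 5 neutrophil markers were at 0. Among the 3 dendritic cell markers, Flt3 and Zbtb46 were at 0, while Xcr1, a chemokine receptor of cross-presenting dendritic cells, had 144 to 231 counts per M1 library and 0 to 6 per M0 library. The part of other cells in the results was not tested, and more cells of a type cannot be told apart from more RNA per cell in these bulk libraries.

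Both rows rose strongly with polarization, with or without the inhibitor. The Parp9 row held 1094, 861, 1025 and 983 counts in M1 VLX-1005 libraries 1 to 4, against 212, 240, 234 and 158 in M0 VLX-1005 libraries. It held 857, 955, 1075 and 1056 counts in M1 vehicle libraries, against 167, 150, 240 and 200 in M0 vehicle libraries. Every M1 library was far above every M0 library, and the ranges did not overlap. How many of all rows tested had M1 and M0 ranges that did not overlap was not counted. In the test described below, 65.3% of rows tested were called with VLX-1005 and 66.5% with vehicle. In CPM, counts scaled to a common library size after TMM normalization, the Parp9 row averaged 1159 ± 65.7 in M1 VLX-1005 cells and 163 ± 21.0 in M0 VLX-1005 cells (SD, n = 4 each). With vehicle it averaged 1144 ± 54.6 CPM in M1 cells and 149.6 ± 27.6 CPM in M0 cells. The lowest M1 VLX-1005 library stood 6.02-fold above the highest M0 VLX-1005 library, and the lowest M1 vehicle library 5.88-fold above the highest M0 vehicle library.

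The Dtx3l row followed the same course at a lower level. It held 506, 411, 493 and 495 counts in M1 VLX-1005 libraries, against 88, 95, 119 and 77 in M0 VLX-1005 libraries. It held 488, 424, 514 and 472 counts in M1 vehicle libraries, against 113, 121, 133 and 99 in M0 vehicle libraries. Again the M1 and M0 ranges did not overlap with either treatment, which was not counted over all rows. The lowest M1 VLX-1005 library stood 5.65-fold above the highest M0 VLX-1005 library. The row averaged 557 ± 32.2 CPM in M1 VLX-1005 cells and 73.2 ± 12.0 CPM in M0 VLX-1005 cells, and 553 ± 48.3 CPM in M1 vehicle cells and 92.2 ± 9.40 CPM in M0 vehicle cells (SD, n = 4 each).

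In edgeR's quasi-likelihood test of all 3453 rows that passed the low-count filter, both genes passed in both transitions. From M0 to M1 with VLX-1005, the log2 fold change of the Parp9 row was 2.83 (SE 0.10), which is 7.11-fold with a 95% interval of 6.12 to 8.26 (adjusted p = 1.54e-16). That of the Dtx3l row was 2.92 (SE 0.11), or 7.59-fold with an interval of 6.5 to 8.86 (adjusted p = 1.52e-16). With vehicle, Parp9 had 2.93 (SE 0.11), or 7.64-fold with an interval of 6.57 to 8.88 (adjusted p = 9.82e-17), and Dtx3l had 2.58 (SE 0.10), or 5.98-fold with an interval of 5.14 to 6.95 (adjusted p = 9.9e-16). A call alone was common. In M1 VLX-1005 against M0 VLX-1005, 65.3% of rows tested were called, with 31.5% higher and 33.8% lower, and in M1 vehicle against M0 vehicle 66.5% were called, with 31.7% higher and 34.8% lower. Rises of this size were less common, since 7.24% of rows tested had a log2 fold change at least as high as that of Parp9 and 7.04% at least as high as that of Dtx3l with VLX-1005, and 6.69% and 7.88% with vehicle. Without the 3 M0 libraries that lay apart, the log2 fold changes were 2.86 for Parp9 and 3.03 for Dtx3l with VLX-1005, and 2.93 and 2.67 with vehicle.

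The scale of these folds depended on normalization, because TMM factors were 0.8236 to 0.8689 in M1 libraries and 1.156 to 1.1993 in M0 libraries. On library totals with no such factors, the median log2 fold change of all rows tested was -0.57 with VLX-1005 and -0.58 with vehicle, against -0.08 and -0.10 with TMM. The calls then split into 20.2% of rows higher and 53.8% lower with VLX-1005, and 20.6% higher and 53.1% lower with vehicle. On that scale Parp9 rose by 2.34 and Dtx3l by 2.43 with VLX-1005, and by 2.45 and 2.10 with vehicle, each past the test.

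Within a polarization state the inhibitor changed neither row past the test, and none of the 3453 rows tested was called. In M1 cells the log2 difference between VLX-1005 and vehicle was 0.02 for Parp9 (95% interval -0.18 to 0.21) and 0.01 for Dtx3l (-0.18 to 0.21), each with an adjusted p of 0.998 in edgeR. Of the 3453 rows, 0 were called in this comparison (0%), while 128 had an unadjusted p under 0.05. The count called was 0 in limma-voom and DESeq2 as well, where 107 and 95 rows were under 0.05 before adjustment.

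In M0 cells the 2 rows lay on different sides of 0. Parp9 held 158 to 240 counts with VLX-1005 and 150 to 240 with vehicle, and its log2 fold change was 0.12 (SE 0.11, unadjusted p = 0.28, adjusted p = 1 in edgeR). Dtx3l held 77 to 119 counts with VLX-1005 and 99 to 133 with vehicle. In CPM, 3 of 4 VLX-1005 libraries, at 65.5 to 70.7, were below all vehicle libraries, at 79.3 to 101, while M0 VLX-1005 3 lay among them at 90.9. The Dtx3l log2 fold change was -0.33 (SE 0.12, 95% interval -0.57 to -0.09), with an unadjusted p of 0.00881 that did not pass over all rows (adjusted p = 1, edgeR). None of the 3453 rows was called, while 103 were under 0.05 before adjustment. In limma-voom the corresponding numbers were 0 and 115, and in DESeq2 they were 0 and 74. Without M0 VLX-1005 3 the Dtx3l value was -0.45 (adjusted p = 0.646), and without the 3 libraries that lay apart it was -0.35 (adjusted p = 1).

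The difference between the transitions asks whether the inhibitor altered the response to LPS and IFN-γ. It was -0.10 on the log2 scale for Parp9 (SE 0.14, 95% interval -0.40 to 0.20) and 0.34 for Dtx3l (SE 0.15, interval 0.04 to 0.65). The unadjusted p was 0.48 for Parp9 and 0.0304 for Dtx3l, and the adjusted p was 1 for both in edgeR. Of all rows tested, 0 passed (0%) and 148 were under 0.05 before adjustment. In limma-voom these were 0 and 133, and in DESeq2 0 and 107. This comparison uses the same M0 libraries as the M0 comparison, so its Dtx3l value adds no separate evidence to the M0 value.

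The share of the pair's counts in the Parp9 row varied least in M1 VLX-1005 libraries and most in M0 vehicle libraries, and M0 shares rest on fewer counts. The Parp9 row took 67.5 ± 0.771% of the counts of both rows in M1 VLX-1005 libraries and 67.4 ± 2.58% in M1 vehicle libraries (SD, n = 4 each). In M0 cells it took 69.0 ± 2.60% with VLX-1005 and 61.6 ± 5.11% with vehicle. By library, the M0 VLX-1005 shares were 70.7%, 71.6%, 66.3% and 67.2%, against 59.6%, 55.4%, 64.3% and 66.9% with vehicle. These ranges overlapped by a single library on each side, M0 VLX-1005 3 and M0 vehicle 4. The widest gap was between M0 VLX-1005 2, whose 95% Wilson interval was 66.6% to 76.2%, and M0 vehicle 2, at 49.4% to 61.2%. Such intervals cover counting error only. The shares are a description, and no test was run on them.

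Per kb of its own exons the Parp9 row was the higher of the pair in all 16 libraries. It averaged 238 ± 13.5 CPM per kb in M1 VLX-1005 cells, 235 ± 11.2 in M1 vehicle cells, 33.4 ± 4.31 in M0 VLX-1005 cells and 30.7 ± 5.66 in M0 vehicle cells. Dtx3l averaged 97.3 ± 5.63, 96.5 ± 8.43, 12.8 ± 2.10 and 16.1 ± 1.64 CPM per kb in the same groups. In this order of levels the M1 groups did not differ from each other beyond their spread, nor did the M0 groups for Parp9. The M0 groups of Dtx3l lay further apart, at 11.4 to 15.9 CPM per kb with VLX-1005 and 13.8 to 17.7 with vehicle, but their ranges overlapped. The Parp9 to Dtx3l ratio of CPM per kb ran from 1.46 in M0 vehicle 2 to 2.97 in M0 VLX-1005 2. Parp9 ranked 406th of 3440 tested rows with a known exon length in M1 vehicle cells and 1351st in M0 vehicle cells, and Dtx3l ranked 723rd and 1728th. These levels assume that a row counts reads over all of its own exons, which the unstated strand setting does not assure. Were the strands exchanged, spliced transcripts of the pair could reach the other row only through the 458 shared bases. Of the Parp9 transcripts, only Parp9-203 can cover these bases in full. The others begin inside the first Dtx3l exon or beyond it, and so cover part of these bases or none. The exon lengths used here would then not apply, and these values would not rank the transcripts of both genes. Spread over those 458 bases alone, all counts of the Parp9 row would come to 2163 counts per kb in M1 VLX-1005 libraries and 2152 in M1 vehicle libraries. Those of the Dtx3l row would come to 1040 and 1036, or to more where Parp9 transcripts cover only part of these bases. Where the reads lay within a row was not measured.

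Other opposite-strand pairs of rows moved together in some cases and apart in others. Among the rows tested, 679 pairs on opposite strands shared at least 1 exon base. Both rows rose in 101 of them (14.9%) from M0 to M1 with vehicle, and the Parp9 and Dtx3l pair was 1 of these. Both fell in 110, the rows were called in opposite directions in 96, only 1 row was called in 272, and neither in 100. The log2 fold changes of Parp9 and Dtx3l differed by 0.10 with VLX-1005, against a median difference of 0.88 over all pairs, and 4.86% of pairs differed by no more. With vehicle they differed by 0.35, against a median of 0.84, and 22.7% of pairs differed by no more. Which transcripts the reads of a row came from was not measured, so these counts describe rows and not transcripts.

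By the likeness measure used here, Parp9 was not the row nearest to Dtx3l, nor the reverse. Likeness was the root mean square difference of centred log2 CPM over the 16 libraries, among 2331 rows with a mean of at least 20 counts. By this measure Dtx3l ranked 11th from Parp9 and Parp9 14th from Dtx3l, at 0.25 log2 units. The rows nearest to Parp9 were Gm15283 (0.15), Gm19412 (0.16), E430024P14Rik (0.19), Gm42917 (0.22) and 1700071M16Rik (0.22). Those nearest to Dtx3l were Gm15283 (0.16), Gm19412 (0.18), G530012D18Rik (0.18), Gm26809 (0.19) and E430024P14Rik (0.20). All 7 of these rows had an exon that overlaps a gene on the other strand, as had 90.5% of the rows compared. Gm15283 is opposite to Hif1a, Gm19412 to Tapbp and Zbtb22, E430024P14Rik to Tagap and Rsph3a, and Gm42917 to Trafd1. 1700071M16Rik is opposite to Pla2g7, G530012D18Rik to Sp110 and Gm26809 to Gm20186. Their log2 fold changes ran from 2.44 for Gm26809 to 3.06 for Gm42917 with vehicle. Their mean CPM over the 16 libraries ran from 570 for Gm42917 to 6350 for Gm19412, against 654 for Parp9 and 319 for Dtx3l. The measure includes counting error, which is larger for rows with fewer counts. How much of the ranking this makes up was not tested.

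Within 100 kb of the pair, 8 other rows held any count and 2 had enough to be tested. Parp14, a macrodomain ADP-ribosyltransferase on the minus strand beyond Dtx3l with no exon of a gene opposite to it, held 29 to 56 counts per M1 VLX-1005 library and 3 to 4 per M0 VLX-1005 library, and 23 to 52 per M1 vehicle library and 2 to 11 per M0 vehicle library. Its row rose by 4.05 (SE 0.38, adjusted p = 3.94e-09) with VLX-1005 and 2.78 (SE 0.34, adjusted p = 2.59e-07, edgeR) with vehicle on the log2 scale. Its difference between the transitions, 1.27 (SE 0.56), did not pass (adjusted p = 1). Hspbap1, on the plus strand beyond Parp14 and opposite to Gm26838, held 13 to 23 counts per M1 VLX-1005 library and 1 to 4 per M0 VLX-1005 library, and 7 to 24 per M1 vehicle library and 0 to 2 per M0 vehicle library. It rose by 3.36 (SE 0.47, adjusted p = 1.63e-06) with VLX-1005 and 4.22 (SE 0.53, adjusted p = 3.43e-07) with vehicle. The other 6 rows, Gm10237, Gm15564, Kpna1, Wdr5b, Fam162a and Ccdc58, held 4 to 26 counts over all 16 libraries together. Parp14 and Hspbap1 passed the low-count filter through their M1 libraries, and were tested for that reason.

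The related families gave few testable rows. Of 15 other ADP-ribosyltransferase genes, 2 were tested and 1 rose in both transitions, namely Parp14. For these families, the shares over all rows tested were 31.5% called higher and 33.8% lower with VLX-1005. With vehicle they were 31.7% and 34.8%. Parp2, which makes poly(ADP-ribose) at DNA breaks, had a log2 fold change of 0.03 with VLX-1005 (adjusted p = 0.956), and -0.45 (adjusted p = 0.341) on library totals. With vehicle it held 2 to 8 counts per M1 library and 10 to 17 per M0 library, with a log2 fold change of -0.85 (adjusted p = 0.0587), and -1.32 (adjusted p = 0.00412) on library totals. Parp2 passed the low-count filter mainly through its M0 vehicle libraries, where it was higher, and was tested for that reason. Of 9 ADP-ribose hydrolase and macrodomain genes, 2 were tested. Gdap2, a macrodomain protein whose row is opposite to Wdr3, fell by 1.06 with VLX-1005 (adjusted p = 0.00511) and by 1.06 with vehicle (adjusted p = 0.00444). H2afy2, a macrodomain histone whose row is opposite to Aifm2, rose by 0.79 with VLX-1005 (adjusted p = 0.00413) and 0.61 with vehicle (adjusted p = 0.024). On library totals its values of 0.30 with VLX-1005 (adjusted p = 0.228) and 0.13 with vehicle (adjusted p = 0.612) did not pass.

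Of the 4 other deltex genes, only Dtx4, a ubiquitin ligase with no exon of a gene opposite to it, was tested. It held 220 to 336 counts per M1 VLX-1005 library and 120 to 155 per M0 VLX-1005 library, and 274 to 363 per M1 vehicle library and 97 to 181 per M0 vehicle library. It rose by 1.70 (SE 0.14, adjusted p = 4.33e-10) with VLX-1005 and 1.88 (SE 0.14, adjusted p = 8.3e-11) with vehicle. Dtx1, Dtx2 and Dtx3 were at 0 to 4 counts per library.

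Among 16 genes of interferon signaling, 13 had too few counts to test. The 3 tested passed the filter mainly through their M1 libraries, and all 3 rose in both transitions, where 31.5% of all rows tested were called higher with VLX-1005 and 31.7% with vehicle. Stat2, a subunit of the factor downstream of type I interferon, held 8 to 22 counts per M1 vehicle library and 0 to 2 per M0 vehicle library (log2 fold change 4.36, SE 0.66, adjusted p = 5.08e-06). Irf7, a transcription factor that amplifies type I interferon and whose row is opposite to Phrf1, held 22 to 37 and 7 to 10 in the same groups (2.27, SE 0.31, adjusted p = 1.3e-06). Irf1, an early target of IFN-γ whose row is opposite to Gm17334, held 6 to 17 and 2 to 6 (2.02, SE 0.48, adjusted p = 0.000921).

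Of 9 DNA damage genes that act with the pair or beside it, 3 were tested. Trp53bp1, a repair scaffold whose row is opposite to Tubgcp4, averaged 718 ± 28.2 CPM in M1 vehicle cells and 595 ± 21.2 CPM in M0 vehicle cells (SD, n = 4 each). Its log2 fold change was 0.19 (adjusted p = 0.00765) with VLX-1005 and 0.27 (SE 0.06, adjusted p = 0.000461) with vehicle, but on library totals its direction turned, to -0.30 (adjusted p = 0.000289) and -0.21 (adjusted p = 0.00639). Mdc1, which binds marked chromatin at breaks, was at 2 to 13 counts per M1 vehicle library and 12 to 23 per M0 vehicle library (-0.97, adjusted p = 0.0628, and -1.45 with adjusted p = 0.00664 on library totals). Mdc1 passed the low-count filter mainly through its M0 libraries, where it was higher, and was tested for that reason. No gene of these families passed for VLX-1005 against vehicle in M1 or in M0 cells, where 0% of rows were called.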

How the data were processed

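The count table deposited by the authors held unnormalized counts, made from strand-specific polyA libraries aligned to mm10 with HISAT2 and counted with HTSeq. Trimmomatic, FastQC and DESeq2 are further tools in the submitters' processing notes. Versions, annotation release and strand setting are not given in the sources used here. Symbols, exons and coordinates came from GENCODE M21 by identifier without version, which matched 48058 of 48440 rows. The other 382 held 0.4699% of counts. Groups came from the submitters' labels, and no column lacked a sample.

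Rows passing filterByExpr by group (3453) were normalized by TMM and tested with edgeR 4.0.16 (R 4.3.3) in a single quasi-likelihood model of 16 libraries, with Benjamini-Hochberg adjustment and a threshold of 0.05. CPM used TMM library sizes. Standard errors were derived from the F statistic. The scripts were tested on simulated data. Pairs of replicates had a chi-square of 2.43 to 6.6 per degree of freedom, above sampling noise, and all were kept as separate samples.

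Alternatives were a minimum mean of 50 counts, no filter, RLE and upper quartile normalization, limma 3.58.1 (voom), DESeq2 1.42.0, a block for replicate number, fits restricted to the groups compared, each library left out, prior counts of 0.5 and 10 for likeness, and 200 bases of exon overlap for pairs. Library totals with no factors, and leaving out 3 M0 libraries, were chosen after seeing the data. Named genes were Parp9 and Dtx3l, rows with counts within 100 kb, the 5 rows nearest to each (log2 CPM, prior count 2), and from 5 lists up to 4 called members of the largest change with vehicle and the 2 of highest CPM. Dtx1, Dtx2, Dtx3 and Xcr1 are named outside this rule. Results of some single genes are left out of this account. The members and lists were chosen with earlier results of these data known. Figures were drawn with matplotlib 3.10.9.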

Additional observations from a re-analysis of the deposited data

How the results depend on the processing

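The calls of Parp9 and Dtx3l in both transitions held under every alternative run. With VLX-1005, the log2 fold change lay between 2.34 and 2.88 for Parp9 and between 2.43 and 3.05 for Dtx3l, and with vehicle between 2.45 and 3.04 and between 2.10 and 2.67. The low ends are those on library totals. With a mean of at least 50 counts, 1262 rows were called with VLX-1005, against 2254, and 1277 with vehicle, against 2295, since only 1678 rows were then tested. Leaving out 1 library gave 2185 to 2237 with VLX-1005 and 2223 to 2299 with vehicle. For VLX-1005 against vehicle in M1 cells, values near 0 changed sign when 1 library was left out, over -0.010 to 0.053 for Parp9 and -0.026 to 0.065 for Dtx3l, and no adjusted p fell under 0.992. In M0 cells, leaving out 1 library gave 0.03 to 0.23 for Parp9 and -0.45 to -0.28 for Dtx3l. The unadjusted p of Dtx3l stayed at or under 0.0343 in all 18 alternatives, with no adjusted p under 0.646. These alternatives reuse the same M0 libraries, so they add no separate evidence to the Dtx3l value. With no low-count filter 1 row was called in M0 cells, against 0, among 17769 tested, and it was neither gene. The Dtx3l difference between the transitions ran from 0.30 to 0.47 over libraries left out, with unadjusted p of 0.00302 to 0.0682.

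Whether the replicate numbers pair the libraries is not stated in the sources used here. Of 16 same-numbered pairs, 2 correlated over 0.1 (range -0.07 to 0.46) and 8 correlated best with their own number. Across the transitions these correlations were -0.067 to 0.05. Between VLX-1005 and vehicle they were 0.04 to 0.091 in M1 cells, each the highest for its library, and 0.043 to 0.46 in M0 cells. With the replicate block, 2293 rows were called with VLX-1005 and 2315 with vehicle, Parp9 and Dtx3l had 2.83 and 2.93 with VLX-1005 and 2.94 and 2.58 with vehicle, and no call of either changed. With a prior count of 10, Dtx3l ranked 21st from Parp9 and Parp9 26th from Dtx3l. With 200 bases of overlap, both rows rose in 14.1% of 481 pairs.

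Counting error alone was 10.3% of the mean Dtx3l count of a library in M0 VLX-1005 cells and 9.26% in M0 vehicle cells. The unstated strand setting limits every row, with or without a gene opposite to it.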
